A study of Mus musculus with 33 samples.

Results

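Mouse embryos at E12.5 were compared with mouse embryos at E11 in polyadenylated RNA from the region of the frontal bone of the calvaria. The 6 libraries compared, 3 at E12.5 and 3 at E11, were chosen by their labelled stage from 33 libraries of 11 stages, and every gene of the table entered. The labels give the stage and the tissue, and no strain, treatment, allele or sex. Nothing in them tells whether replicate libraries were made from different embryos, from pools or from 1 preparation. Every p-value below thus reflects the spread among libraries alone. Unless another fit is named, that spread was estimated over all 33 libraries of 11 stages, and not from the 6 compared alone. Levels are CPM, counts relative to library size after scaling for library composition, and library letters a, b and c are names only. Of 55401 genes in the table, 20073 passed a filter on low counts and were tested with edgeR's quasi-likelihood test. A gene was called higher or lower at E12.5 with a Benjamini-Hochberg adjusted p below 0.05.

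In the skull vault, the frontal bone ossifies within mesenchyme, largely of neural crest origin, without a cartilage model, and it lies over the forebrain and beside the eye. Runx2 commits mesenchymal cells to the osteoblast lineage, Sp7 acts after it, and genes of mineralizing matrix such as Ibsp and Bglap are expressed later. Before mineral forms, the mesenchyme lays down collagens and small leucine-rich proteoglycans. The lens, retina, midbrain and dorsal and ventral forebrain each express their own transcription factors and structural genes, which serve below as markers.

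The stages that lie between these ends, E11.5 and E12, stood out of stage order. On the first principal component of log2 CPM over all libraries, which held 47.1% of the variance, E12.5 had a mean of 41.9 and E11 of 34.6, while the libraries labelled E11.5 lay at 84.1 and those labelled E12 at 22.1. The ratio of the embryonic globins Hbb-bh1 to Hbb-y, which falls over the course, was 0.058 ± 0.0053 at E12.5 and 0.108 ± 0.0044 at E11 (SD, n = 3 each), but 0.0135 at E11.5 and 0.0688 at E12. Pairs of libraries correlated at 0.9879 to 0.9893 within E12.5 and at 0.9892 to 0.9902 within E11, against 0.9649 to 0.9856 within E12. Totals ran from 16004817 to 18061930 counts at E12.5 and from 17081223 to 18310604 at E11. As markers of the labelled tissue, Runx2 and Alpl each averaged over 10 CPM at both stages, whereas Ibsp, Bglap and Dmp1 had 11, 26 and 19 counts in all at E12.5 and 3, 39 and 26 at E11.

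Most tested genes on lists of the lens, retina, midbrain and ventral forebrain were lower at E12.5. Most on lists of the dorsal forebrain and motile cilia were higher, as were some on lists of choroid plexus and extracellular matrix. The lists of retina, midbrain, ventral and dorsal forebrain and motile cilia were chosen after values were seen, so their counts are not independent support. Of the 20073 genes, 1323 (6.59%) were higher at E12.5 and 1393 (6.94%) were lower. The falls were the larger changes. At least 2-fold, 306 genes (1.52%) were higher and 591 (2.94%) lower, and at least 4-fold, 66 were higher and 238 lower. Among the genes called, the median change was 1.49-fold for the higher and 1.82-fold for the lower. In 7072 genes (35.2%) the stages did not overlap, far more genes than were called. The median log2 fold change over all genes tested was 0.013, the value to set beside the medians of gene lists. The shares of 6.59% higher and 6.94% lower are those to set beside the counts of gene lists. Fitted with only these 6 libraries, where the filter kept 17684 genes, 1999 were higher and 2131 lower. With the stages E11.5, E12 and E13.5 left out of the fit, 2895 were higher and 2433 lower.

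**Figure D1:**
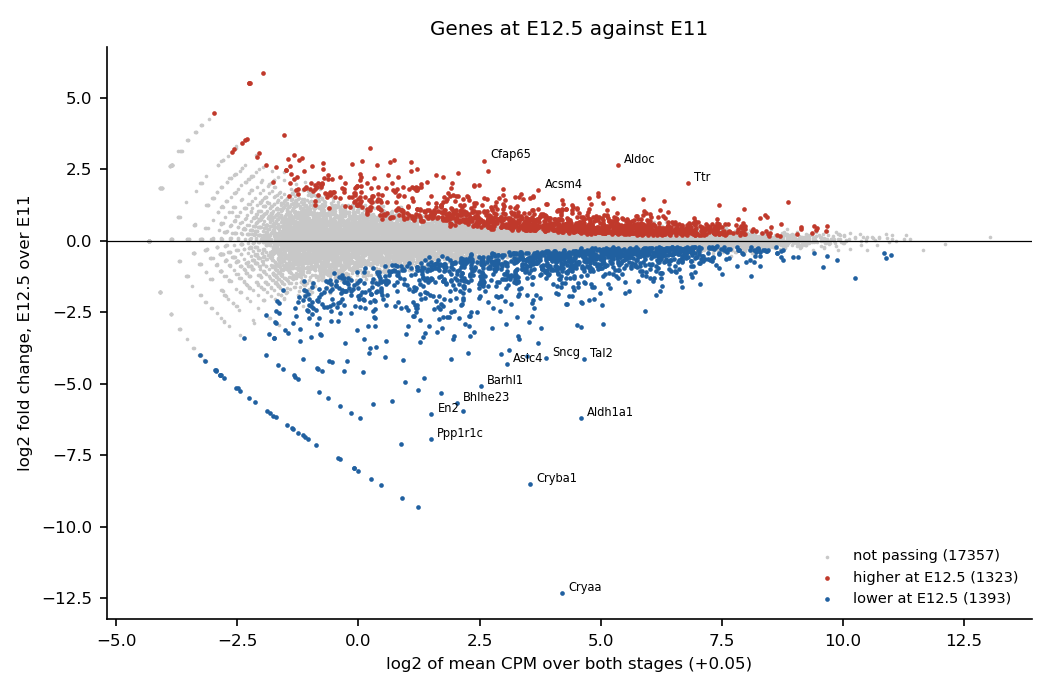
Each point is 1 of the 20073 genes tested, with the log2 of its mean CPM over both stages (plus 0.05) across the page and its fitted log2 fold change, E12.5 over E11, up the page; red points are higher and blue points lower at E12.5. The falls reach further from 0 than the rises; fitted values of genes with no count at E12.5, such as Cryaa, depend on the prior count of the fit and are not bounds.

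Lens genes led the falls among genes of at least 5 CPM, and 6 of their promoters are shown because each of these genes had between 0 and 3 counts in all at E12.5, against 47 or more at E11. Sequences are from RefSeq on GRCm38.p6, 5′ to 3′ in the sense of the gene, ending at the base before RefSeq's start of the gene. Capitals mark TGCTGAC (a half-site of Maf factors), CCTTTTGTG (a block seen in these sequences and searched for afterwards), TATAAA and TATATA, found on the strand shown.
Cryaa, chr17:31677681-31677930, plus strand: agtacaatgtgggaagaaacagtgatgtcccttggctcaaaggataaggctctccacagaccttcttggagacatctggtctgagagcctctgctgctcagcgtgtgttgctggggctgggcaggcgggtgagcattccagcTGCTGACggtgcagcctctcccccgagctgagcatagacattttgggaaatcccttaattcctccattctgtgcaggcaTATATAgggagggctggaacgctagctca
Cryba1, chr11:77725294-77725543, minus strand: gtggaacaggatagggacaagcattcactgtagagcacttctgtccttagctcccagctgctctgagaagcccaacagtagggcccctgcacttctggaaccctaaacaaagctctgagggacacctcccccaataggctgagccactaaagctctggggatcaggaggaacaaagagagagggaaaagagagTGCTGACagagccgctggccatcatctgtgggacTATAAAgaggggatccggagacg
Cryga, chr1:65103364-65103463, minus strand: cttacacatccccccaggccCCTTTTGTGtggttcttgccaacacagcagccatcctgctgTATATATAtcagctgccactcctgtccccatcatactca
Crygc, chr1:65073533-65073632, minus strand: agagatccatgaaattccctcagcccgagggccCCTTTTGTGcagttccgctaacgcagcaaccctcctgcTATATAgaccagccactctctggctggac
Crygd, chr1:65063441-65063540, minus strand: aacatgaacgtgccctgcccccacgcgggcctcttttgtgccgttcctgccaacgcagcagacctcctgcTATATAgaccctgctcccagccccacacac
Cryge, chr1:65051164-65051263, minus strand: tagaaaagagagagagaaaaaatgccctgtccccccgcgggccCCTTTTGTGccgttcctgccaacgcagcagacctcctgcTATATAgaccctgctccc

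The Maf half-site began 108 bases before the start of Cryaa and 57 bases before that of Cryba1. CCTTTTGTG began 80, 67 and 57 bases before the starts of Cryga, Crygc and Cryge. Searched on both strands of windows from 250 bases before to 50 after the start, TGCTGAC was found in 5, CCTTTTGTG in 3, TATAAA in 4 and TATATA in 5 of the 12 lens genes that fell. Of all 32851 such windows in the table, 4.67% held TGCTGAC, 0.377% held CCTTTTGTG, 13.6% held TATAAA and 5.67% held TATATA. CCTTTTGTG was picked from these same sequences, so its count in them is no independent support. Its matches, and most of those of TATATA, lay in neighbouring gamma-crystallin genes of near-identical sequence. Matches of TATAAA and TATATA can overlap. A match describes the letters of the window and shows no binding.

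Most lens genes tested fell. Of 15 tested genes on the lens list, 12 were lower at E12.5, none was higher, and 3 did not pass. Those 3, named after their values were seen, were Cryab, Bfsp1 and Bfsp2, with log2 fold changes of -0.36, 0.18 and 0.56. The list's median log2 fold change was -5.16, or -3.45 with genes at 0 set to their bounds. Its summed level was 10.1 to 12.9 CPM in the E12.5 libraries and 101 to 111 CPM in the E11 libraries. In bulk tissue, fewer cells of a type and less RNA per cell cannot be told apart.

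Cryaa, which encodes the chaperone alpha A-crystallin, had no count in any E12.5 library, against 34.8, 40.3 and 35.2 CPM in the E11 libraries. With 0 counts over a group taken as fewer than 3 counts, it was at least 655-fold lower at E12.5 (adjusted p = 8.61e-16). Cryba1, a beta-crystallin of the lens fibre, had 3 counts in all at E12.5 (0, 0.0519 and 0.119 CPM), against 1309 counts at E11 (22.3, 25.1 and 22.3 CPM). Its ratio of E12.5 to E11 was 0.00242, with a 95% counting interval of 0.000498 to 0.00708 (adjusted p = 6.52e-13). For both genes every E11 library lay above every E12.5 library, as the rule that chose them required.

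The gamma-crystallin genes, structural genes of fibre cells, are near-identical neighbours, so that their reads may not be told apart. Cryge and Crygd had no count at E12.5 and were at least 65.1-fold and 14.9-fold lower than at E11, where they averaged 3.65 ± 0.41 and 0.833 ± 0.062 CPM (SD, n = 3 each). Cryga and Crygc had 1 count each at E12.5, against 108 and 66 counts at E11. Foxe3, a transcription factor of the lens epithelium, also had no count at E12.5, on only 14 counts at E11, and was at least 4.42-fold lower (adjusted p = 0.0454). That call was lost without E11 library b or any 1 of the E12.5 libraries (adjusted p = 0.112 to 0.252).

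Most listed genes of the optic cup were lower at E12.5 as well. On a list of retina and pigment epithelium genes that was put together after values were seen, 8 of 11 tested genes were lower and 1 higher (median -2.02). Its summed level was 83.4 to 89.3 CPM at E12.5 and 123 to 127 CPM at E11. Over other stages it did not follow the lens list. It averaged 163 CPM at E10 and 97.5 CPM at E12, against 11.03 and 97.0 CPM for the lens list. Its member Otx2 was also on the neural progenitor and choroid plexus lists. The eye-field factor Rax fell by 3.36 ± 0.34, and Vax2, of the ventral retina, by 3.09 ± 0.79 on 4 counts at E12.5. Atoh7, which retinal ganglion cells need, fell by 2.998 ± 0.51. The exception, named after its value was seen, was Rlbp1, a retinaldehyde-binding protein, higher by 1.29 ± 0.18. Aldh1a1, an enzyme of retinoic acid synthesis strong in the dorsal retina and in some dopaminergic neurons, had 0.516, 0.675 and 0.712 CPM at E12.5, against 51.0, 48.7 and 42.8 CPM at E11. The E11 libraries were all far above (log2 fold change -6.21 ± 0.22, adjusted p = 4.44e-19).

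**Figure D2:**
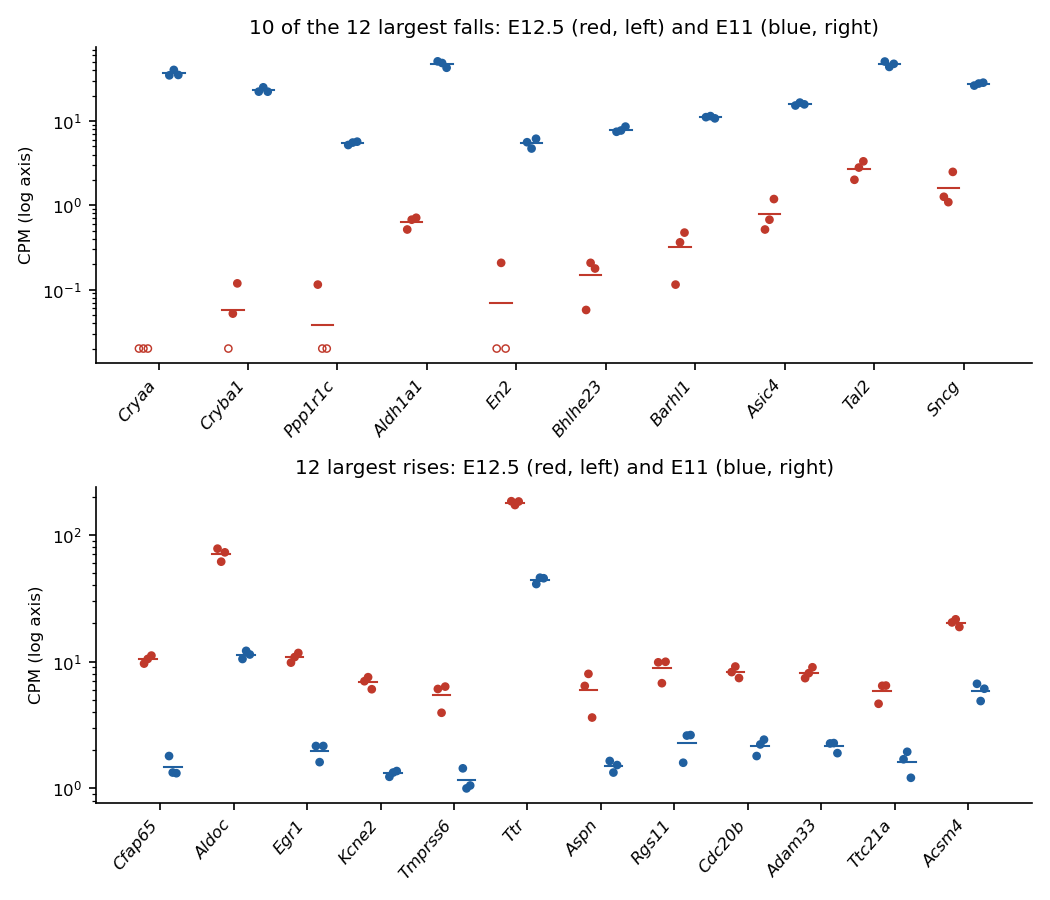
CPM on a log axis in each E12.5 library (red, left of each pair) and each E11 library (blue, right) for 10 of the 12 largest falls and the 12 largest rises, with bars at the means; open circles mark a count of 0, drawn at 0.02 CPM. The libraries of the stages do not overlap in any of these genes, because the rule that chose them asked for it; Cryaa is at 0 in all 3 E12.5 libraries.

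Transcription factors of the midbrain and hindbrain were lower at E12.5. On a list chosen after values were seen, 15 of 18 genes were lower and none higher (median -2.12), with summed levels of 55.6 to 64.5 CPM at E12.5 and 205 to 212 CPM at E11. En2, a homeobox factor of the midbrain-hindbrain boundary, was at 0, 0.208 and 0 CPM at E12.5, against 5.599, 4.72 and 6.16 CPM at E11 (log2 fold change -6.07 ± 0.37, adjusted p = 2.93e-13). Foxa2, of the floor plate, and Wnt1, a signal of the dorsal midbrain and the boundary, had no count at E12.5 and were at least 81.5-fold and 31.6-fold lower. The 3 members that did not pass, named after their values were seen, were En1, Pax2 and Pax8, with log2 differences of -0.12, -0.45 and 0.07. En1, the other engrailed gene, averaged 2.89 ± 0.30 CPM at E12.5 and 3.12 ± 0.51 CPM at E11 (SD, n = 3 each).

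Tal2, which specifies GABAergic neurons of the midbrain, stood at 2.01, 2.80 and 3.32 CPM at E12.5, against 50.7, 43.8 and 47.6 CPM at E11 (log2 fold change -4.12 ± 0.17, adjusted p = 1.36e-17). Barhl1, a homeobox factor of the diencephalon and hindbrain, was at 0.115, 0.364 and 0.475 CPM at E12.5, against 11.1, 11.4 and 10.7 CPM at E11 (-5.09 ± 0.25, adjusted p = 2.22e-15). In both genes the lowest E11 library was over 10 times the highest E12.5 library. Bhlhe23, a basic helix-loop-helix factor of retina and diencephalon, fell by 5.66 ± 0.36, the ion channel subunit gene Asic4 by 4.32 ± 0.27, and gamma-synuclein Sncg, of peripheral and ganglion neurons, by 4.10 ± 0.27. Ppp1r1c, an inhibitor of protein phosphatase 1, had 2 counts at E12.5 and 309 at E11, a ratio of 0.00683 with a counting interval of 0.000823 to 0.0249.

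The ventral and the dorsal forebrain moved in opposite directions. On lists chosen after values were seen, 13 of 15 ventral forebrain genes were lower and 1 higher (median -1.62), whereas 11 of 14 dorsal forebrain genes were higher and none lower (median 0.852). Nkx2-1, which specifies the medial ganglionic eminence, was at 3.27, 6.18 and 6.23 CPM at E12.5, against 40.8, 46.0 and 41.5 CPM at E11 (log2 fold change -3.03 ± 0.15, adjusted p = 2.56e-15). Lhx8 and Lhx6, which act after it in the same eminence, fell by 3.83 ± 0.22 and 2.19 ± 0.17, and Gsx1, of ventral progenitors, by 3.35 ± 0.31. The ventral gene that was higher, named after its value was seen, was Sp8, by 0.76 ± 0.09.

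In the dorsal forebrain, Emx1, a homeobox factor of the cortical primordium, was at 88.4, 78.3 and 89.8 CPM at E12.5, against 30.6, 29.4 and 33.5 CPM at E11 (log2 fold change 1.46 ± 0.14, adjusted p = 2.95e-09). Neurod2 and Neurod6, of cortical excitatory neurons, rose by 1.67 ± 0.14 and 1.49 ± 0.13, and Dmrt3 by 1.07 ± 0.14. No E11 library reached an E12.5 library in these 4 genes. Of the 3 members that did not pass, Pax6 and Neurog2 differed by 0.13 and 0.01 and Bcl11b by 0.35. The summed level of the dorsal list was 1577 to 1707 CPM at E12.5 and 982 to 1043 CPM at E11.

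Neuronal genes fell as a group, apart from those of the cortex. Of 21 genes on the neuron list, 16 were lower and 2 higher (median -0.771), with summed levels of 2308 to 2342 CPM at E12.5 and 3729 to 3756 CPM at E11. The light neurofilament Nefl was at 8.83, 7.32 and 7.36 CPM at E12.5, against 58.8, 58.0 and 59.3 CPM at E11 (log2 fold change -2.90 ± 0.11, adjusted p = 3.33e-18), and the medium chain Nefm fell by 2.45 ± 0.08. Gad1 and Gad2, the enzymes that make GABA, fell by 1.94 ± 0.13 and 1.83 ± 0.11. The members that rose, named after their values were seen, were Eomes and Tbr1, factors of cortical intermediate progenitors and early cortical neurons, at 1.06 ± 0.11 and 0.55 ± 0.12. Against the same E11 libraries, the E11.5 libraries had 6 of the 21 higher and 3 lower.

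Peripheral sensory neuron genes were lower too, 6 of 9 with none higher (median -2.04). Pou4f1, a sensory and midbrain factor, was at 0.803, 0.831 and 1.13 CPM at E12.5, against 14.2, 15.9 and 12.8 CPM at E11 (log2 fold change -3.95 ± 0.17, adjusted p = 4.04e-17). Prph, which encodes the neurofilament-like protein peripherin, fell by 2.22 ± 0.23. Among 15 neural progenitor genes, 2 were higher and 5 lower. The forebrain factor Emx2 rose by 0.77 ± 0.08, and Six3, of the most anterior neural plate and eye, and the Notch target Hes5 fell by 0.94 ± 0.11 and 0.78 ± 0.16. Emx2 averaged 69.2 ± 4.2 CPM at E12.5 and 40.7 ± 3.0 CPM at E11 (SD, n = 3 each), so forebrain RNA was present at both stages.

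**Figure D3:**
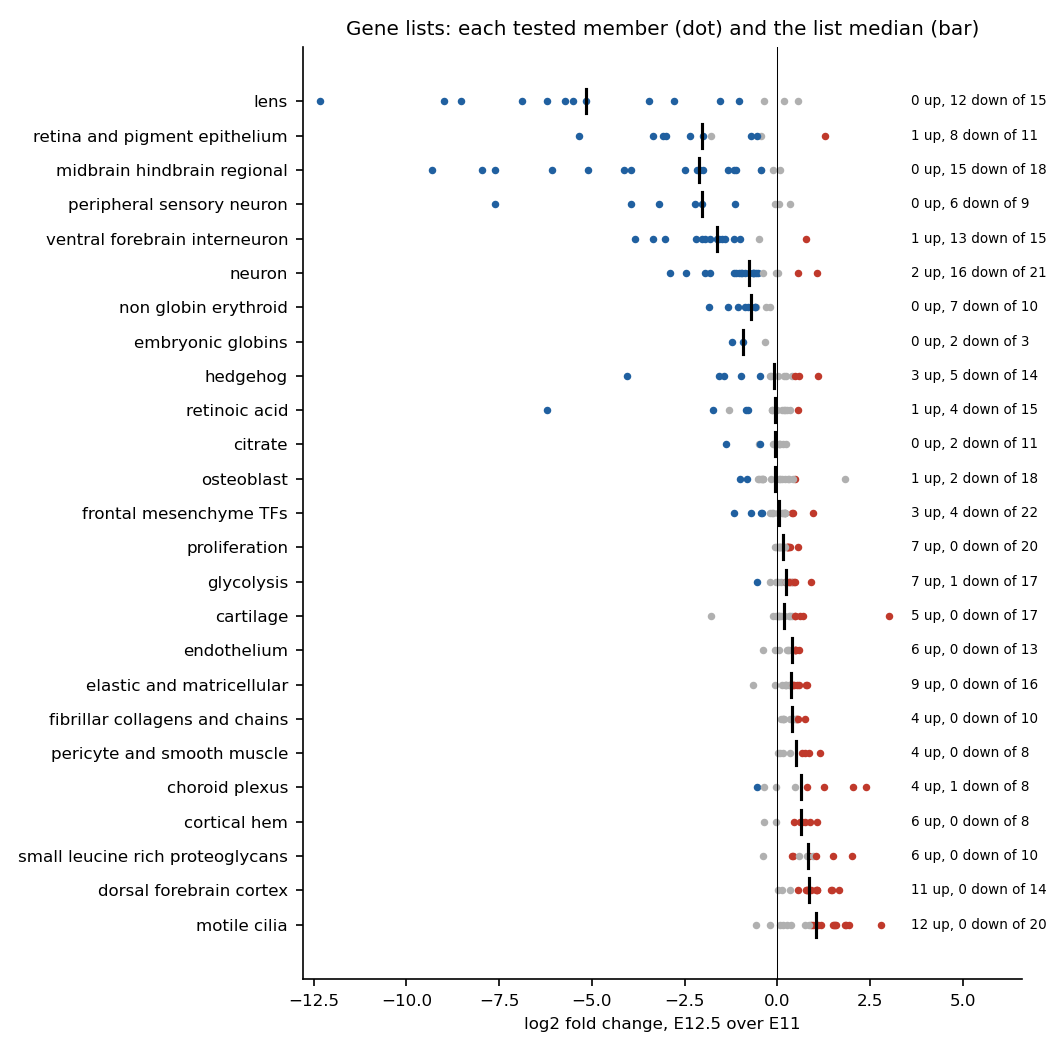
Each dot is 1 tested gene of a list at its log2 fold change, E12.5 over E11, red or blue where it passed as higher or lower and grey where it did not; black bars are list medians. Medians of the lens, retina, midbrain, sensory and ventral forebrain lists lie left of 0 and those of the dorsal forebrain and motile cilia lists right of 0. Medians of the bone, citrate, hedgehog and retinoic acid lists lie around 0, though some hedgehog and retinoic acid genes lie far to the left. The retina, midbrain, ventral forebrain, dorsal forebrain, cortical hem and motile cilia lists were chosen after values were seen.

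Some genes of the dorsal midline and the ventricle wall rose. On a list of the cortical hem, the signalling centre at the edge of the cortex, chosen after values were seen, 6 of 8 were higher and none lower (median 0.643). Its WNT ligands Wnt2b, Wnt3a and Wnt8b rose by 1.06 ± 0.22, 0.88 ± 0.15 and 0.68 ± 0.17, and Rspo1, an enhancer of WNT signalling, by 0.76 ± 0.10. The rise of this list was not seen at other stages. At E11.5 against E11, 1 of the 8 was higher and 3 were lower. At E13.5 against E10.5, 1 was higher and 5 were lower. Of 8 choroid plexus genes, 4 were higher and 1 lower. Transthyretin, Ttr, the thyroid hormone carrier that choroid plexus secretes, was at 184, 172 and 183 CPM at E12.5, against 40.9, 45.9 and 45.4 CPM at E11 (log2 fold change 2.03 ± 0.19, adjusted p = 5.11e-09). The potassium channel subunit Kcne2 rose by 2.38 ± 0.26, the chloride channel protein Clic6 by 1.26 ± 0.14 and the water channel Aqp1 by 0.79 ± 0.14.

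Motile cilium genes gave several of the largest rises. On a list chosen after values were seen, 12 of 20 were higher and none lower (median 1.03), with summed levels of 287 to 307 CPM at E12.5 and 220 to 226 CPM at E11. Cfap65, a cilium- and flagellum-associated protein and the largest rise among genes of at least 5 CPM, was at 9.64, 10.49 and 11.2 CPM at E12.5, against 1.80, 1.33 and 1.32 CPM at E11 (log2 fold change 2.81 ± 0.26, adjusted p = 1.93e-09). Cdc20b, next to the multiciliogenesis genes Ccno and Mcidas in the genome, rose by 1.95 ± 0.31, Ttc21a by 1.85 ± 0.28 and the radial spoke gene Rsph4a by 1.81 ± 0.41. Foxj1, the master regulator of motile cilia, averaged 30.9 ± 1.8 CPM at E12.5 and 15.8 ± 3.1 CPM at E11 (SD, n = 3 each). Its rise was 0.97 ± 0.14 (adjusted p = 5.13e-06), and no library of one stage overlapped the other.

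The remaining large rises were of varied function. Aldoc, the brain form of the glycolytic enzyme aldolase, was at 77.8, 61.4 and 72.7 CPM at E12.5, against 10.48, 12.2 and 11.4 CPM at E11 (log2 fold change 2.64 ± 0.12, adjusted p = 2.3e-16), and every E12.5 library was at least 5 times every E11 library. Tmprss6, a serine protease of iron balance, rose by 2.22 ± 0.25, the G protein regulator Rgs11 by 1.96 ± 0.24, the metalloprotease Adam33 by 1.93 ± 0.18 and the acyl-CoA synthetase family gene Acsm4 by 1.78 ± 0.18. In each of these 4 genes the E12.5 libraries all lay above the E11 libraries, as the rule that chose them required.

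Components of hedgehog signalling, in which a secreted ligand relieves the block that the receptor Ptch1 puts on Smo, changed in both directions. Of 14 genes, 5 were lower and 3 higher (median -0.0845). The ligand Shh was at 0.803, 1.14 and 1.84 CPM at E12.5, against 18.2, 22.8 and 21.5 CPM at E11 (log2 fold change -4.05 ± 0.17, adjusted p = 4.04e-17). The targets of the pathway moved with the ligand. Ptch1 averaged 55.1 ± 2.8 CPM at E12.5 and 148 ± 2.6 CPM at E11 and fell by 1.43 ± 0.17, the antagonist Hhip by 1.58 ± 0.21 and Gli1 by 0.48 ± 0.12, the call of Gli1 being lost without E12.5 library b (-0.40, adjusted p = 0.0532). The members that rose, named after their values were seen, were the 3 co-receptors, Cdon (340 ± 14 CPM at E12.5, 158 ± 7.6 CPM at E11, 1.11 ± 0.12), Gas1 (0.59 ± 0.11) and Boc (0.47 ± 0.12). Shh and ventral brain genes fell in the same libraries, and the part of brain tissue in the falls of Ptch1 and Gli1 was not tested.

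WNT and FGF lists were mixed. Of 31 WNT genes, 7 were higher and 5 lower (median 0.0244). Beside Wnt1, the receptor Fzd10 and the secreted modulator Sfrp2 fell by 1.23 ± 0.18 and 1.03 ± 0.09, and Wnt3a rose by 0.88 ± 0.15. Of 21 FGF genes, 6 were higher and 3 lower (median 0.244). Fgf17, a ligand of the rostral forebrain and the isthmus, was at 28.6, 22.8 and 28.4 CPM at E12.5, against 8.37, 10.2 and 11.4 CPM at E11 (log2 fold change 1.41 ± 0.15, adjusted p = 4.49e-08), with no overlap. The related ligand Fgf8 rose by 1.14 ± 0.25, while Fgf3 and Fgf10 fell by 2.05 ± 0.45 and 1.20 ± 0.26. Against the same E11 libraries, the E11.5 libraries were lower in Fgf17 and Fgf8, at -0.50 and -0.93.

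Among 15 retinoic acid genes, 4 were lower and 1 higher (median -0.0513). Beside Aldh1a1, all 3 degrading enzymes fell, Cyp26c1 by 1.75 ± 0.33, Cyp26a1 by 0.85 ± 0.26 and Cyp26b1 by 0.78 ± 0.17. The call of Cyp26a1, on 60 counts at E12.5 and 115 at E11, was lost without E12.5 library b or c or E11 library a (adjusted p = 0.106 to 0.134). Of 26 BMP and TGF-beta genes, 3 were higher and none lower (median 0.129). These were the ligands Bmp5 (0.64 ± 0.19), Bmp4 (0.60 ± 0.12) and Bmp7 (0.40 ± 0.10). The call of Bmp7 was lost without E12.5 library c (0.28, adjusted p = 0.0718), and that of Bmp5 without E12.5 library a or b or E11 library b or c (adjusted p = 0.0545 to 0.138).

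The osteoblast list hardly moved as a group. Of 18 genes, 1 was higher and 2 were lower, shares near the background of all genes for the rise (median -0.0598). The summed level was 382 to 397 CPM at E12.5 and 386 to 394 CPM at E11. It averaged 458 CPM at E8.5 and 495 CPM at E9.5, above both stages compared. Runx2, Alpl and Sp7 made up little of the sum at E12.5 and E11, so it says little about them. Runx2 was at 14.7, 15.3 and 16.1 CPM at E12.5, against 12.48, 10.43 and 10.47 CPM at E11, with no overlap (log2 fold change 0.47 ± 0.15, adjusted p = 0.0305). That call was lost without any 1 of the E12.5 libraries or without E11 library b or c (0.42 to 0.50, adjusted p = 0.0554 to 0.121). Dlx5, a homeobox activator of osteoblast genes that ventral forebrain also expresses, was at 6.597, 6.49 and 8.60 CPM at E12.5, against 14.2, 16.6 and 13.1 CPM at E11 (-1.02 ± 0.15, adjusted p = 7.28e-06). The forebrain genes Dlx1 and Dlx2 fell as well, by 1.57 ± 0.09 and 1.62 ± 0.11, and the part of forebrain RNA in the fall of Dlx5 was not tested. Smpd3, a neutral sphingomyelinase needed for bone mineralization and vesicle release, fell by 0.81 ± 0.15.

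Later bone genes were scarce at both stages. Sp7 averaged 1.44 ± 0.19 CPM at E12.5 and 1.08 ± 0.19 CPM at E11 (log2 difference 0.41 ± 0.25, adjusted p = 0.332). Ibsp had 11 counts at E12.5 and 3 at E11, a ratio of 3.87 with a counting interval of 1.02 to 21.6 (adjusted p = 0.26). Neither passed. Alpl, the phosphatase that frees phosphate for mineral, averaged 11.4 ± 1.9 CPM at E12.5 and 10.9 ± 0.25 CPM at E11 and differed by 0.06 ± 0.12. The log2 differences of Spp1, Bglap, Dmp1 and Phex, at -0.45 ± 0.29, -0.51 ± 0.52, -0.37 ± 0.62 and -0.38 ± 0.41, did not pass either. At these counts a 2-fold difference in Bglap or Dmp1 lay within 2 standard errors and was not detectable. Of 12 mineral and phosphate regulators, 2 were higher and none lower. These were the calcification inhibitor Mgp (5.44 ± 0.60 CPM at E12.5, 2.56 ± 0.67 CPM at E11, 1.08 ± 0.27) and Enpp1, which makes pyrophosphate (7.04 ± 0.82 CPM at E12.5, 3.80 ± 0.36 CPM at E11, 0.89 ± 0.16).

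**Figure D4:**
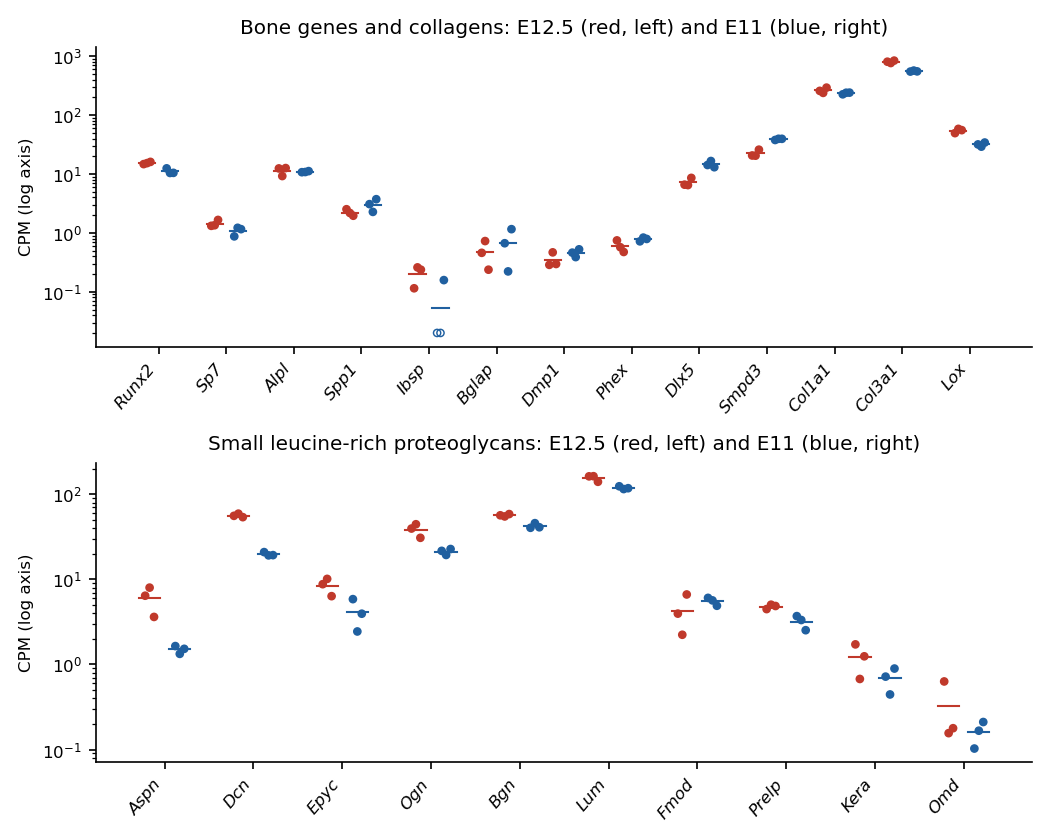
CPM on a log axis in each E12.5 library (red, left of each pair) and each E11 library (blue, right) for bone genes and collagens (top) and for the small leucine-rich proteoglycans (bottom), with bars at the means; open circles mark a count of 0, drawn at 0.02 CPM. Alpl, Spp1, Ibsp, Bglap, Dmp1, Phex and Col1a1 overlap between the stages, while Dcn, Ogn, Bgn, Lum, Aspn and Epyc lie higher at E12.5.

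Transcription factors of frontal and cranial mesenchyme also split, with 3 of 22 higher and 4 lower (median 0.0519). Tfap2c rose by 0.97 ± 0.09 while its relative Tfap2a fell by 0.70 ± 0.14. Lmx1b, which is expressed in calvarial mesenchyme and in the midbrain, was at 9.06, 9.40 and 9.67 CPM at E12.5, against 21.0, 21.3 and 20.5 CPM at E11, without overlap (log2 fold change -1.16 ± 0.15, adjusted p = 6.5e-07). Midbrain genes fell in the same libraries, and their part was not tested. Foxc2 fell by 0.45 ± 0.15, a call that was lost without E12.5 library a or b or E11 library b or c (adjusted p = 0.0816 to 0.179). The count of higher members was 1 without E12.5 library a or E11 library c, and that of lower members was 2 without E12.5 library a or E11 library b.

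On the matrix lists some members rose, and none passed as lower in the fit to all libraries. Of 10 small leucine-rich proteoglycans, which bind collagen fibrils, 6 were higher (median 0.824). Decorin, Dcn, was at 55.8, 59.2 and 53.9 CPM at E12.5, against 20.9, 19.1 and 19.3 CPM at E11 (log2 fold change 1.51 ± 0.10, adjusted p = 7.08e-13). Asporin, Aspn, was at 6.43, 7.997 and 3.62 CPM at E12.5, against 1.64, 1.33 and 1.53 CPM at E11 (2.004 ± 0.29, adjusted p = 7.95e-06). Its E12.5 library c was lower than the other E12.5 libraries and above all of E11, which the rule that chose Aspn required. Osteoglycin, Ogn, rose by 0.85 ± 0.19, and epiphycan, Epyc, by 1.04 ± 0.26, a call lost without E11 library b (0.78, adjusted p = 0.0573). Without E12.5 library c, 1 member was lower.

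Of 10 collagen chain genes, 4 were higher and none lower (median 0.394), and 9 were higher with the stages E11.5, E12 and E13.5 left out of the fit. Col3a1 was at 809, 768 and 844 CPM at E12.5, against 550, 572 and 554 CPM at E11 (log2 fold change 0.53 ± 0.09, adjusted p = 3.61e-05). Col14a1, Col12a1 and Col5a2 rose by 0.74 ± 0.18, 0.56 ± 0.16 and 0.51 ± 0.09, the call of Col12a1 being lost without E11 library b or c (0.55 and 0.52, adjusted p = 0.0588 and 0.071). The main bone collagen chain Col1a1 averaged 264 ± 28 CPM at E12.5 and 236 ± 8.7 CPM at E11 and did not pass (0.16 ± 0.15, adjusted p = 0.592).

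Of 16 genes of elastic fibres and matricellular proteins, 9 were higher and none lower (median 0.361), or 5 without E12.5 library a or E11 library a. Lox, which cross-links collagen and elastin, was at 49.5, 58.5 and 55.6 CPM at E12.5, against 31.9, 29.2 and 34.3 CPM at E11 (log2 fold change 0.78 ± 0.12, adjusted p = 1.96e-05), with no overlap. The matricellular genes Thbs2 and Tnc rose by 0.79 ± 0.17 and 0.60 ± 0.15 and elastin, Eln, by 0.54 ± 0.13. Smooth muscle genes, which include Acta2, rose in the same libraries, and their part in the rise of Eln was not tested.

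Of 17 cartilage genes 5 were higher and none lower (median 0.18). Matn1, a matrilin of cartilage, had 33 counts at E12.5 and 4 at E11 (3.003 ± 0.73, adjusted p = 0.00453), and Col11a2 rose by 0.69 ± 0.15. Col9a3 rose by 0.61 ± 0.17, a call lost without E12.5 library a or c or E11 library c (adjusted p = 0.0532 to 0.127), and Sox6 by 0.49 ± 0.14, lost without E12.5 library b or E11 library b or c (adjusted p = 0.0563 to 0.084). The list gave 3 calls without E12.5 library a or E11 library b and 2 without E11 library c, and its main collagen, Col2a1, did not pass (0.18). Of 6 tendon genes 3 were higher, Tnmd by 1.06 ± 0.19, Mkx by 0.63 ± 0.14 and Egr1, which is also an immediate early gene, by 2.44 ± 0.19. Scx, Thbs4 and Kera, named after their values were seen, did not pass.

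Some vessel and mural genes rose while some genes of embryonic red cells fell. Of 13 endothelial genes 6 were higher and none lower (median 0.387), with summed levels of 405 to 452 CPM at E12.5 and 326 to 344 CPM at E11. Kdr, the main VEGF receptor, Egfl7, Erg and Emcn rose by 0.49 ± 0.13, 0.60 ± 0.15, 0.49 ± 0.14 and 0.48 ± 0.13. These calls were lost without E11 library b for Kdr and Emcn (adjusted p = 0.0586 and 0.0701), without E11 library a for Egfl7 (adjusted p = 0.0571) and without E12.5 library a or E11 library a for Erg (adjusted p = 0.0501 and 0.0597). Of 8 pericyte and smooth muscle genes 4 were higher and none lower, led by smooth muscle actin Acta2, at 67.8, 65.5 and 72.4 CPM at E12.5, against 35.4, 41.5 and 36.5 CPM at E11 (0.86 ± 0.12, adjusted p = 2.38e-06). Tagln and Rgs5 rose by 0.76 ± 0.16 and 0.66 ± 0.14, and Myh11 by 1.15 ± 0.29, lost without E12.5 library b or E11 library c (adjusted p = 0.0501 and 0.067).

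Among embryonic globins, Hbb-bh1 averaged 165 ± 3.4 CPM at E12.5 and 389 ± 2.9 CPM at E11 (SD, n = 3 each; log2 fold change -1.23 ± 0.16, adjusted p = 1.04e-06), and Hba-x fell by 0.92 ± 0.17. Hbb-y differed by -0.34 ± 0.21 (adjusted p = 0.352) and passed with only these 6 libraries in the fit (-0.35, adjusted p = 0.000251). Near-identical globin copies may share reads. Of 10 other erythroid genes 7 were lower and none higher (median -0.7), including the nuclear protein gene Hemgn by 1.83 ± 0.17 and the transcription factors Tal1 and Gata1 by 1.34 ± 0.12 and 0.88 ± 0.23. Tal1 is also a midbrain gene, and the call of Gata1 was lost without E12.5 library a or c or E11 library a (adjusted p = 0.0708 to 0.0888). None of the 4 adult globins passed (median 0.208), while 2 were higher and 1 was lower with only these 6 libraries in the fit.

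Genes of citrate handling, which the series title names, were mostly level. Of 11 tested, none was higher and 2 were lower (median -0.0697). Idh1, the cytosolic isocitrate dehydrogenase, was at 211, 209 and 195 CPM at E12.5, against 289, 275 and 291 CPM at E11, with no overlap (log2 fold change -0.48 ± 0.08, adjusted p = 4.08e-05). Slc13a3, a carboxylate importer, fell by 1.38 ± 0.36 on 29 counts at E12.5 and 80 at E11, a call lost without E12.5 library c (-1.10, adjusted p = 0.0673) or E11 library c (-1.17, adjusted p = 0.0601). The citrate importer Slc13a5 had 12 counts at E12.5 and 18 at E11 (-0.50 ± 0.60, adjusted p = 0.692). Citrate synthase Cs averaged 238 ± 1.2 CPM at E12.5 and 233 ± 5.3 CPM at E11, and differed by 0.03 ± 0.07. The mitochondrial citrate carrier Slc25a1 (-0.12 ± 0.13), Acly (-0.07 ± 0.12), the aconitase Aco1 (0.04 ± 0.08), Idh2 (0.24 ± 0.10), Ank (-0.08 ± 0.09) and Slc39a1 (0.16 ± 0.08) did not pass.

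Of 27 vesicle biogenesis genes 4 were higher and 2 lower (median 0.00941), against 6.59% and 6.94% of all genes tested. The lower count was near that background. Annexin Anxa2 rose by 0.52 ± 0.14, Arrdc1 by 0.48 ± 0.15 and the syndecan Sdc4 by 0.44 ± 0.15, and beside Smpd3 the syntenin gene Sdcbp fell by 0.22 ± 0.07, a call lost without any library but E12.5 b (adjusted p = 0.0585 to 0.191). The calls of Anxa2 and Arrdc1 were lost without E12.5 library a or c or E11 library a (adjusted p = 0.0507 to 0.198), that of Arrdc1 also without E11 library b (adjusted p = 0.114), and that of Sdc4 without any library but E11 a (adjusted p = 0.0649 to 0.202). The list gave no higher call without E12.5 library a or c, 2 without E12.5 library b and 1 without E11 library a or b, and 1 lower call without any library but E12.5 b.

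Of 20 proliferation genes 7 were higher and none lower (median 0.154), or 4 without E12.5 library c. Other stages went the other way. At E11.5 against the same E11 libraries, none of the 20 was higher and 18 were lower. At E13.5 against E10.5, none was higher and 20 were lower. Thymidine kinase Tk1 was at 110, 107 and 123 CPM at E12.5, against 72.1, 83.5 and 76.3 CPM at E11, without overlap (log2 fold change 0.55 ± 0.10, adjusted p = 0.000144), and Aurka and Mcm3 rose by 0.35 ± 0.08 and 0.31 ± 0.07. Mki67 and Top2a were level, at 0.01 and -0.07. Of 17 glycolysis genes 7 were higher and 1 lower (median 0.241), but between 1 and 3 were higher without E12.5 library a or c or any 1 E11 library. At E11.5 against E11, 1 of the 17 was higher and 9 were lower. At E13.5 against E10.5, 3 were higher and 12 lower. Gapdh rose by 0.90 ± 0.10 and Pfkp fell by 0.54 ± 0.14. Ldha rose by 0.45 ± 0.12 and lost its call without E12.5 library c (adjusted p = 0.0501), and Eno1 rose by 0.48 ± 0.15 and lost it without any library but E12.5 b (adjusted p = 0.0526 to 0.145). Of 13 genes of the mitochondrial genome and 35 ribosomal protein genes none passed, while 12 ribosomal genes were higher with only these 6 libraries in the fit and 19 with the stages E11.5, E12 and E13.5 left out.

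Some immediate early genes, which cells switch on soon after a stimulus, were higher. Of 11 such and heat shock genes 4 were higher and none lower (median 0.629). Egr1 was at 9.81, 10.9 and 11.7 CPM at E12.5, against 2.16, 1.61 and 2.16 CPM at E11 (adjusted p = 5.49e-11), and Fos was at 4.42, 3.90 and 4.45 CPM at E12.5, against 1.18, 1.05 and 0.790 CPM at E11 (log2 fold change 2.07 ± 0.33, adjusted p = 2.55e-05). Neither gene overlapped between the stages, which the rule that chose Egr1 among the largest rises required. Jun rose by 0.39 ± 0.08. Fosb rose by 1.77 ± 0.58 on 30 counts at E12.5 and 9 at E11 and lost its call without any library but E12.5 c (adjusted p = 0.0655 to 0.339).

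Libraries of other stages, none of them among the 6 compared, gave the direction of these genes from E10.5 to E13.5 and to E14.5. Of the 1323 genes higher at E12.5, 760 (57.4%) were also higher at E13.5 than at E10.5, against 30.9% of all genes. There 345 (26.1%) were lower, against 29.5% of all genes. At E14.5 against E10.5, 783 (59.2%) were higher, against 32% of all genes, and 327 (24.7%) were lower, against 32.3%. Of the 1393 lower at E12.5, 542 (38.9%) were also lower at E13.5 than at E10.5, against 29.5% of all genes. There 468 (33.6%) were higher, against 30.9% of all genes. At E14.5 against E10.5, 784 (56.3%) were lower, against 32.3% of all genes, and 311 (22.3%) were higher, against 32%. Ttr averaged 628 ± 206 CPM at E13.5 and 0.0343 ± 0.030 CPM at E10.5, and Aspn 42.65 ± 9.8 CPM at E13.5 and 0.0358 ± 0.031 CPM at E10.5 (SD, n = 3 each). En2 averaged 0.173 ± 0.13 CPM at E13.5 and 64.2 ± 2.6 CPM at E10.5, and Tal2 0.614 ± 0.33 CPM at E13.5 and 50.9 ± 1.7 CPM at E10.5. In contrast Ppp1r1c and Sncg, among the 12 largest falls, were higher at E13.5 than at E10.5, with log2 fold changes of 6.18 ± 0.31 and 2.80 ± 0.22, and Cryaa did not pass there (0.08 ± 0.91, adjusted p = 0.946).

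The passed-over stages did not simply lie between the ends. The mean at E11.5 lay between those of E11 and E12.5 for 634 (47.9%) of the higher genes and 654 (46.9%) of the lower ones, and that at E12 for 462 (34.9%) and 639 (45.9%). The summed lens level averaged 11.03 to 15.5 CPM at the stages from E8.5 to E10.5, 104 CPM at E11, 11.1 CPM at E11.5, 97.0 CPM at E12, 11.2 CPM at E12.5, 28.9 CPM at E13.5 and 24.6 CPM at E14.5. The lens genes were thus high in the E11 and E12 libraries and near their E8.5 level at E11.5 and E12.5. The midbrain and hindbrain list stood at 412 CPM at E10.5, 209 CPM at E11, 74.7 CPM at E11.5, 131 CPM at E12 and 59.6 CPM at E12.5. The proteoglycan list stood at 121 CPM at E10.5, 218 CPM at E11, 414 CPM at E11.5, 477 CPM at E12, 332 CPM at E12.5 and 1945 CPM at E14.5. Whether tissue other than bone was included to a different extent in the dissections of these stages cannot be told apart from stage.

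**Figure D5:**
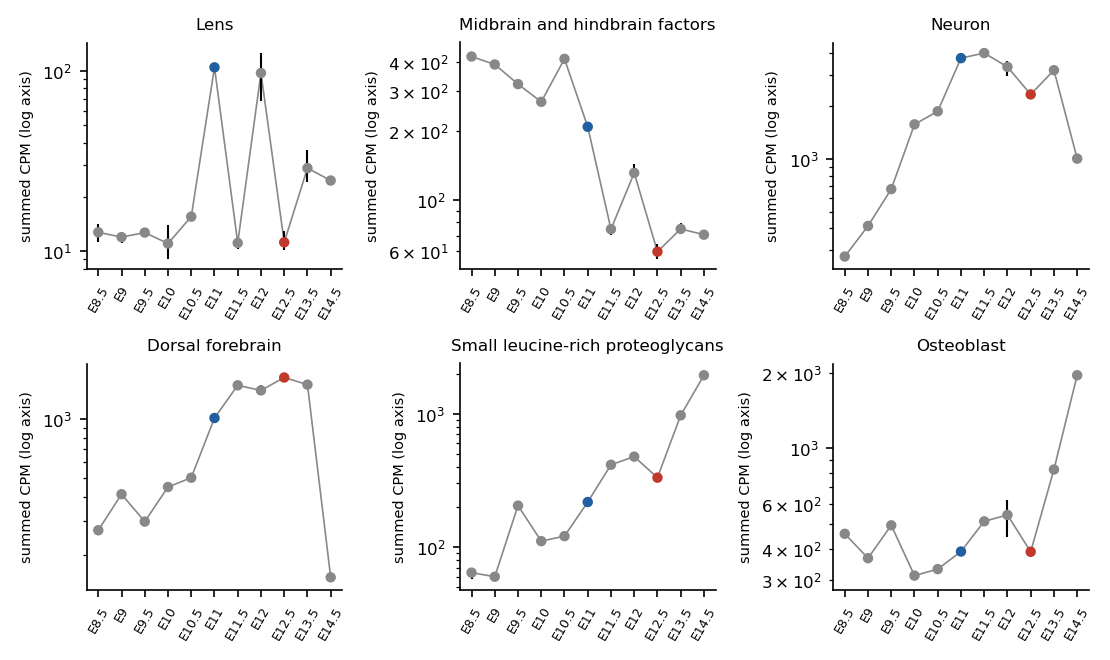
Summed CPM (log axis) of 6 gene lists at each of the 11 stages, with the mean of 3 libraries as a point and their range as a vertical line; E12.5 is red, E11 is blue and the other stages are grey. Lens genes alternate between about 11 and 100 CPM from E11 to E12.5, midbrain genes decline unevenly, dorsal forebrain genes are high from E11 to E13.5, and proteoglycans and osteoblast genes reach their highest levels at E14.5.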

How the data were processed

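Gene counts of 33 libraries of mouse calvarial frontal bone were used as the authors deposited them, with no normalization. Per the submitters' processing notes, reads were trimmed with cutadapt 1.9.1, aligned with HISAT2 2.0.1 to GRCm38 and counted per gene with HTSeq 0.6.1. The sources used here name neither the annotation release nor the strand setting, so overlapping and antisense genes may share counts. Symbols were joined by gene ID for 55141 genes, and 260 had none.

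From these counts, edgeR 4.0.16 (R 4.3.3) fitted its quasi-likelihood model to all 33 libraries, with TMM scaling, a filter on low counts (filterByExpr) and 1 term per stage, which gave 22 residual degrees of freedom. The contrast was E12.5 minus E11, with Benjamini-Hochberg adjustment over 20073 genes. Adjusted p values in the text are from this contrast and fit unless a library is said to be left out or another fit or contrast is named. Where libraries were left out, they are from the same test in the refit. For E13.5 against E10.5 they are from the fit to all 33 libraries. Standard errors (± after a log2 fold change) are approximate, being the fold change divided by the square root of F; ± after CPM is the SD of 3 libraries. The tested genes held 99.86% to 99.96% of counts. A group with no count was given a floor of 3 counts over the group, and ratios with 1 to 3 counts carry exact 95% intervals, both for counting error only. Scripts were tested on simulated data in which no other gene differed between stages. There 38 of 67 genes changed 1.5-fold and 58 of 67 changed 2-fold were called in the right direction, with 17 false calls. Changes of 1.5-fold were thus often missed there.

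Genes named are the 12 largest rises and the 12 largest falls with no overlap and a mean of at least 5 CPM at the higher stage (predicted genes, RIKEN clones and pseudogenes left out), up to 4 passing members with the largest change of each list, and all citrate genes and 8 osteoblast genes. The comparison, its gene lists and the rule were chosen with earlier results of these data known, and the lists of retina, midbrain and hindbrain, ventral forebrain, dorsal forebrain, cortical hem and motile cilia after values were seen. Some genes that the rule names are not reported here, 2 of them among the largest falls; counts over lists include every tested member. Members named beyond the rule to complete a count were chosen after their values were seen. Columns carry letters that could not be tied to the labels' replicate numbers. Deviations of same-letter libraries from their stage means correlated at -0.132, -0.0486 and -0.0124, so letters were not used as pairs. Alternatives changed the scaling, filter, tool, libraries in the fit and gene length correction, or left out 1 library.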

Additional observations from a re-analysis of the deposited data

Results flagged for a closer look

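In the libraries labelled E12, which enter no comparison here although the stage lies between E11 and E12.5, 7 of the 12 largest falls averaged at least 5 CPM and stood at over 5 times their E12.5 level. They are given because a signal that was lower at E12.5 was present in libraries outside the comparison. Cryaa averaged 21.38 CPM at E12 (26.8, 22.6 and 14.8 in the libraries), with no count at E12.5, and Cryba1 averaged 19.04 CPM (25.9, 18.0 and 13.2), against 0.0569 CPM at E12.5. Among genes of other tissues, Aldh1a1 averaged 31.98 CPM, En2 15.28 CPM, Tal2 16.21 CPM, Asic4 6.915 CPM and Sncg 13.35 CPM at E12, against 0.634, 0.0692, 2.71, 0.793 and 1.61 CPM at E12.5. Which of these E12 values reflect the stage was not tested.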

How the results depend on the processing

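The 12 largest rises and 10 of the 12 largest falls were followed, and all kept their direction and passed in each of the 16 alternatives, or in the 15 that tested Bhlhe23, Cdc20b and Ttc21a, which the stricter filter left out. Counts of genes higher and lower were 1264 and 1442 with DESeq2 size factors, 1210 and 1269 with library totals alone, 1132 and 1302 without a filter, 1459 and 1608 with DESeq2's Wald test, and 1717 and 1604 with a trend on gene length removed. Fitted to only the 6 libraries, they were 1999 and 2131, and with the stages E11.5, E12 and E13.5 left out, 2895 and 2433; the cause was not tested. Leaving out 1 library gave 897 to 1144 higher and 1064 to 1212 lower, and at least 2-fold, 259 to 282 higher and 522 to 557 lower. A stricter filter kept 12495 genes, of which 121 were higher and 251 lower at least 2-fold. A replicate block on the column letter gave 1248 higher and 1338 lower; of the 167 genes named by rule it ended only the calls of Fosb and Sdc4, and the vesicle list then had 1 lower call, without Sdcbp.

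Between 9 and 18 named calls were lost on leaving out 1 library. With E11.5 standing in for E12.5 against the same E11 libraries, 2154 genes rose and 2459 fell (at least 2-fold, 930 and 360). The sign changed in 30 named genes that passed in 1 comparison or both. Some, such as Erg, Jun and Krt8, did not pass with E11.5, and Spp1, Slc13a5, Cs and Aco1 had not passed at E12.5. Others, such as Fgf17 and Fgf8, passed in both. The cause was not tested for any of these 30 genes. Their log2 fold changes were then 0.96 for Spp1, 1.84 for Slc13a5, 0.12 for Slc13a3, -0.37 for Cs, -0.25 for Aco1, 0.12 for Dlx5, 0.24 for Smpd3, -0.36 for Mkx, 0.20 for Gad1, 0.0856 for Gad2, 1.13 for Prph, -0.0611 for Krt8, -0.41 for Cldn6, -0.00144 for Erg, -0.13 for Tagln, -0.0329 for Tk1, -0.56 for Aurka, -0.65 for Mcm3, -0.62 for Mcm5, -0.22 for Gapdh, 0.71 for Pfkp, -0.411 for Eno1, -0.415 for Ldha, -0.0205 for Jun, -0.27 for Bmp4, -0.50 for Fgf17, -0.93 for Fgf8, 0.62 for Lhx6, -0.29 for Rspo1 and -0.61 for Wnt8b. Depth limits Ibsp, Bglap and Dmp1, which had 3 to 39 counts at a stage.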

Other observations

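Of 10 muscle regulators 3 were lower and none higher. Pax3 and Pax7, of muscle precursors and dorsal neural tube, fell by 1.28 ± 0.12 and 0.90 ± 0.15, with no overlap between the stages in either. Of 17 contractile genes 1 was higher, near the 6.59% of all genes tested. This was Myh8, by 0.98 ± 0.25, a call lost without E12.5 library c or E11 library c (adjusted p = 0.0871 and 0.0516).

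Of 9 melanocyte genes 5 were lower and 2 higher (median -1.71), or 3 and 1 without E12.5 library a. Tyr, the rate-limiting enzyme of melanin synthesis, and the melanosome protein Pmel fell by 2.34 ± 0.25 and 2.06 ± 0.19. Dct, which forebrain progenitors also express, rose by 0.87 ± 0.17. Pigment epithelium of the eye expresses the same melanin genes, and retina genes fell in the same libraries; which tissue the falls came from was not tested. Of 8 Schwann and crest glia genes 3 were lower, among them Ednrb and Sox10 by 1.10 ± 0.14 and 0.82 ± 0.15.

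Of 16 surface epithelium genes 5 were higher (median 0.164), led by Epcam at 0.73 ± 0.12, but 2 or 3 were higher without E12.5 library c or any 1 E11 library. Of 14 macrophage genes 2 were higher, Cd68 by 0.62 ± 0.12 and Lyz2 by 0.53 ± 0.17, and the call of Lyz2 was lost without any library but E12.5 b (adjusted p = 0.0632 to 0.146). Of 11 early embryonic genes 3 were lower and 2 higher, or 1 higher without E12.5 library a or any 1 E11 library and 0 with only the 6 libraries in the fit or without a filter. The 2, named after their values were seen, were Nanog, by 2.47 ± 0.64 on 28 counts at E12.5 and 5 at E11, and L1td1, by 0.90 ± 0.27. The RNA-binding protein gene Lin28a fell by 2.10 ± 0.21, Trim71 by 1.14 ± 0.16 and Lin28b by 0.78 ± 0.09. Of 13 Hox genes, which are off in the forebrain, Hoxa2 and Hoxb2 had no count at E12.5 and were at least 12.01-fold and 5.69-fold lower than at E11, with summed Hox levels of 0.474 to 0.688 CPM at E12.5 and 1.54 to 2.05 CPM at E11. No IGF gene of 11 passed. Of 22 genes of the citric acid cycle, only Pdha1 passed, against 6.94% of all genes tested that were lower. It was lower by 0.17, a call lost on leaving out any 1 library (adjusted p = 0.0672 to 0.144).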
